A study of Mus musculus with 12 samples.

Results

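Levels of 10 genes of the epididymal epithelium, which encode lipocalins and other secreted or surface proteins, were followed across 12 RNA-seq libraries of white adipose tissue. The genes, 10 of 49315 in the count table, were Crisp1, Spink8, Adam7, Rnase9, Rnase10, Lcn5, Lcn8, Lcn9, Lcn10 and Lcn12. They were selected by symbol on measured values, because earlier analysis of these counts had shown epididymal transcripts at high levels in 4 libraries, namely flox vehicle replicates 1, 3 and 4 and flox MTX replicate 1. Levels and fold changes that involve those 4 libraries are therefore a description. Where a fit called members in such a contrast, the count is set beside the share of all genes called and nothing is read from it. In all, 8 of the 10 genes passed the filter on low counts and entered the fits, and Lcn9 and Lcn10 did not.

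The study asked how methotrexate (MTX), an antifolate used against inflammation, and the miRNA genes Mir181a-2 and Mir181b-2 act on visceral fat in obesity. Male age-matched flox mice (miR-181a2b2flox/flox, in which both miRNA genes are intact and flanked by loxP sites) and systemic knockout mice (miR-181a2b2-/-, KO) all received a high-fat diet (HFD) with 60% fat for 12 weeks. In each genotype 3 mice were injected i.p. every week with vehicle and 3 with MTX at 1 mg/kg, and RNA of epididymal white adipose tissue (eWAT) gave 1 library per mouse. The deletion was present in every cell of KO mice, so no cell type was singled out by it, and p-values measure only the spread between these mice.

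The libraries held 19495310 to 23976469 counts. The adipocyte list (10 genes, among them Fabp4 and Adipoq) was present in all libraries and summed to between 10540 and 73640 CPM per library, where CPM are counts scaled to library size, as the label of the tissue implies. The deleted miRNA genes could not check the genotypes, since Mir181a-2 had 2 counts in 1 library and Mir181b-2 had 0. The testis germ cell list (7 genes) summed to between 159.3 and 552.2 CPM in the flox vehicle libraries, to between 0.5908 and 1.039 CPM in flox MTX mice and to at most 9.658 CPM in KO mice, so germ cell transcripts moved with the epididymal genes in 3 of the 4 libraries. The macrophage list (6 genes) stood at 294.5 to 523.1 CPM in flox vehicle mice and 2410 to 4921 in KO vehicle mice. Under MTX it stood at 341.4 to 2052 CPM in flox mice and 2996 to 4838 in KO mice. It did not run opposite to the epididymal genes in every library. Flox MTX replicate 1, where those genes were high, had 1408 CPM, and flox MTX replicate 4, where they were low, had 341.4 CPM. In KO against flox mice under vehicle 6 of its 6 genes were called higher, beside 2598 of all 18702 genes tested. In MTX against vehicle in flox mice 6 of 6 were called higher, beside 1513 of 18702. The endothelium list (5 genes) stood at 238.9 to 356.9 CPM in flox vehicle mice and 494.5 to 750.9 CPM in KO vehicle mice. There 4 of its 5 genes were called higher, beside the same 2598 of 18702. The part of these cell types in the results below was not tested. In RNA of whole tissue, fewer cells of a type and less RNA per cell cannot be told apart.

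The epididymis is the coiled duct in which sperm mature after they leave the testis. Its epithelium is divided along its length into caput, corpus and cauda, and each segment secretes its own set of proteins into the lumen, most of them under androgen control. Lipocalins are small barrel-shaped carriers of lipids such as retinoids, and several lipocalin genes expressed in the caput lie in one cluster on mouse chromosome 2. Crisp1 encodes a cysteine-rich secretory protein that binds to sperm, Spink8 a Kazal-type serine protease inhibitor, Adam7 a catalytically inactive membrane metalloprotease, and Rnase9 and Rnase10 secreted proteins of the RNase A family.

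Upstream sequences are shown first because the members, although all epididymal, fell into 3 patterns across the libraries. RefSeq (GRCm38.p6) gave a start site for 8 of the 10 genes, and windows of 200 bases, with 180 bases before and 20 after the start, were searched on both strands for 4 motifs. These were AGAACA (half-site of steroid hormone response elements), TATAAA (bound by the TATA-binding protein), AGGAAG (core of ETS factor sites) and the pentamer CCAAT, and no motif contains another. Of all 32817 windows, 12.8% held AGAACA, 9.47% TATAAA, 25.2% AGGAAG and 29.1% CCAAT. The first 3 windows belong to genes that were high together in the 4 libraries (Crisp1 at chr17:40319188-40319387, minus strand; Rnase9 at chr14:51041848-51042047, minus strand; Lcn12 at chr2:25493892-25494091, minus strand). Capitals mark motif letters as they lie on the strand of the gene.
Crisp1: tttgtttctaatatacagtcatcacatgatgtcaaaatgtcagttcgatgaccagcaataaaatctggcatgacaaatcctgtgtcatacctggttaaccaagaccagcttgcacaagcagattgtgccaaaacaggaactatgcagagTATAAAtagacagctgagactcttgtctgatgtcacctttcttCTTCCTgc
Rnase9: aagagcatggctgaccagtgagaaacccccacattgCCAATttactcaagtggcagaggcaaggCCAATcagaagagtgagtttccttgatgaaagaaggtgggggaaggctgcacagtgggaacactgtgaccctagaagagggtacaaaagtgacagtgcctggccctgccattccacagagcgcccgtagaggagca
Lcn12: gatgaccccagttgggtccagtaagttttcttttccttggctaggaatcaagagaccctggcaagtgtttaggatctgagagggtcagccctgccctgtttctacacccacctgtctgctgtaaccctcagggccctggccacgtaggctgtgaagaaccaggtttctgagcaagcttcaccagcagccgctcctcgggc
Crisp1 carried a TATA box 31 bases before the start and a reverse ETS core (CTTCCT) after it, Rnase9 carried a pair of CCAAT boxes, and Lcn12 matched none of the 4. These 3 windows thus shared no motif of this set. The other genes of that pattern, Spink8 and Adam7, had no window in the table and were not searched.

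The next window belongs to Lcn5, whose counts came almost wholly from flox vehicle replicate 3 (chr2:25657772-25657971, plus strand). Those of Lcn8 (chr2:25652938-25653137) and Lcn9 (chr2:25822973-25823172), both on the plus strand, belong to genes that were not raised in the 4 libraries.
Lcn5: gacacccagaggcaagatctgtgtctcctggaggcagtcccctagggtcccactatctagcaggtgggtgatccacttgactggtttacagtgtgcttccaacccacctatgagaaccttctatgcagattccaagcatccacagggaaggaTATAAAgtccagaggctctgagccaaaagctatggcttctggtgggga
Lcn8: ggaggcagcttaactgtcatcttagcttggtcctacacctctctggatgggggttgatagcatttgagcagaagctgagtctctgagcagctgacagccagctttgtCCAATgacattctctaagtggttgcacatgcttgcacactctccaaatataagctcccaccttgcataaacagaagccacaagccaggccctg
Lcn9: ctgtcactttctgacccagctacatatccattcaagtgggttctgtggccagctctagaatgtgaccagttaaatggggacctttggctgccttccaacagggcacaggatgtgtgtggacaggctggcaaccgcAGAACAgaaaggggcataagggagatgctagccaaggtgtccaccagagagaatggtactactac
Lcn5 had a TATA box 28 bases before the start, Lcn8 a CCAAT box 73 bases before it and Lcn9 an AGAACA match 45 bases before it. Among the remaining windows, Lcn10 held AGAACA once and the upstream window of Rnase10 held it on both strands. A match describes letters only, and the absence of one says nothing about a factor.

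The summed counts of the 10 genes differed between libraries by orders of magnitude. They came to 128708, 377142 and 39529 counts in flox vehicle replicates 1, 3 and 4, which was 0.57%, 1.61% and 0.186% of all counts. Flox MTX replicate 1 had 13078 counts (0.0545%). The other 8 libraries had between 19 and 325 counts, with KO MTX replicate 4 the lowest and flox MTX replicate 4 the highest. On the CPM scale the flox vehicle libraries stood at 5585, 14834 and 1825, flox MTX replicate 1 at 618 and the others between 0.83 and 20.3 CPM.

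**Figure D1:**
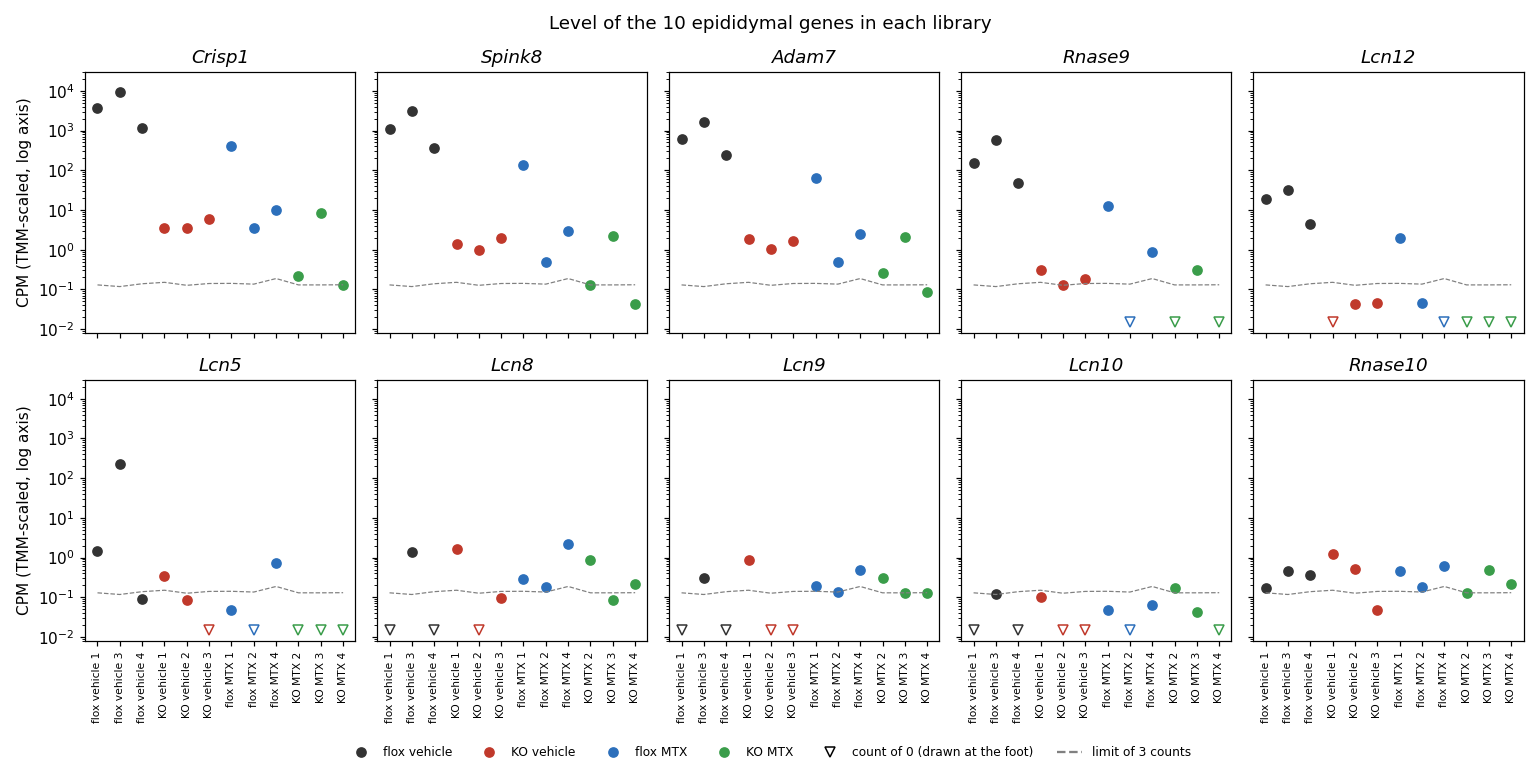
Level of each gene (CPM, TMM-scaled, log axis) in each of the 12 libraries, with 1 point per mouse coloured by group, open triangles for counts of 0 and a dashed line at the limit of 3 counts. Crisp1, Spink8, Adam7, Rnase9 and Lcn12 stood above their own levels elsewhere in flox vehicle 1, 3 and 4 and flox MTX 1. Lcn12 reached only 1.94 CPM in flox MTX 1. Lcn5 stood out in flox vehicle 3 alone (222 CPM), and the remaining 4 genes reached at most 2.25 CPM.

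Crisp1 was the most abundant member. Its counts were 86439, 233923 and 25221 in flox vehicle replicates 1, 3 and 4 (3751, 9201 and 1165 CPM), and 69, 81 and 123 in KO vehicle replicates 1, 2 and 3. In flox MTX replicates 1, 2 and 4 it had 8461, 76 and 158 counts, and in KO MTX replicates 2, 3 and 4 it had 5, 196 and 3. Vehicle-treated flox and KO mice did not overlap, nor did vehicle- and MTX-treated flox mice, although flox MTX replicate 1 (399.7 CPM) stood far above its group. Within KO mice, KO MTX replicate 3 (8.49 CPM) exceeded all KO vehicle libraries and the other 2 MTX libraries lay below them.

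Spink8 and Adam7 followed Crisp1 closely. Spink8 had 24565, 80708 and 7867 counts in flox vehicle mice, 28, 23 and 41 in KO vehicle mice, 2930, 11 and 46 in flox MTX mice and 3, 52 and 1 in KO MTX mice. Adam7 had 13790, 40940 and 5287 counts in flox vehicle mice, 38, 25 and 36 in KO vehicle mice, 1362, 11 and 40 in flox MTX mice and 6, 49 and 2 in KO MTX mice. Both genes were high in the same 4 libraries as Crisp1, and flox MTX replicate 4 and KO MTX replicate 3 led the low libraries for all 3 genes. Pearson's r of log2-CPM over the 12 libraries was 0.995 for Spink8 and 0.991 for Adam7 against Crisp1, a description that the 4 high libraries dominate.

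Rnase9 and Lcn12 were high in the same libraries at lower levels. Rnase9 had 3448, 15038 and 1046 counts in flox vehicle mice, 6, 3 and 4 in KO vehicle mice, 262, 0 and 14 in flox MTX mice and 0, 7 and 0 in KO MTX mice. Lcn12 had 428, 832 and 98 counts in flox vehicle mice, 0, 1 and 1 in KO vehicle mice, 41, 1 and 0 in flox MTX mice and 0 in every KO MTX library. Outside the 4 libraries Lcn12 never passed the limit of 3 counts (0.127 to 0.188 CPM there, depending on depth), so its low levels could not be told from 0 at this depth.

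The order of abundance was read per kb of exon, since the genes differ in length. In flox vehicle mice Crisp1 reached 3323 ± 2897 CPM per kb (SD, n = 3), Spink8 1869 ± 1782, Rnase9 221 ± 243 and Adam7 189 ± 164. Lcn5 stood at 84.5 ± 145 CPM per kb and Lcn12 at 23.6 ± 17.9, and Lcn8, Rnase10, Lcn9 and Lcn10 were all at or below 0.705. Group SDs were large because the libraries differed in total, but Crisp1 lay above Spink8, and Spink8 above Rnase9, in 3 of 3 libraries. Rnase9 lay above Adam7 in 1 of 3 and Lcn5 above Lcn12 in 1 of 3, so these neighbours were not separated. The same held for Lcn8 and Rnase10, for Rnase10 and Lcn9 and for Lcn9 and Lcn10.

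Ratios between members within a library do not depend on scaling between libraries. Crisp1 made up 67.2% of the member counts in flox vehicle replicate 1 (exact Clopper-Pearson 95% interval 66.9 to 67.4%), 62.0% in replicate 3 (61.9 to 62.2%), 63.8% in replicate 4 (63.3 to 64.3%) and 64.7% in flox MTX replicate 1. Its share moved by 1.083-fold between these libraries while its CPM moved by 23.0-fold. The highest share over the lowest was 1.174 for Spink8, 1.284 for Adam7, 1.507 for Lcn12 and 1.99 for Rnase9. These intervals cover counting error only, and several of the differences exceeded it, since Rnase9 took 3.99% (3.93 to 4.05%) in flox vehicle replicate 3 and 2.65% (2.49 to 2.81%) in replicate 4.

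**Figure D2:**
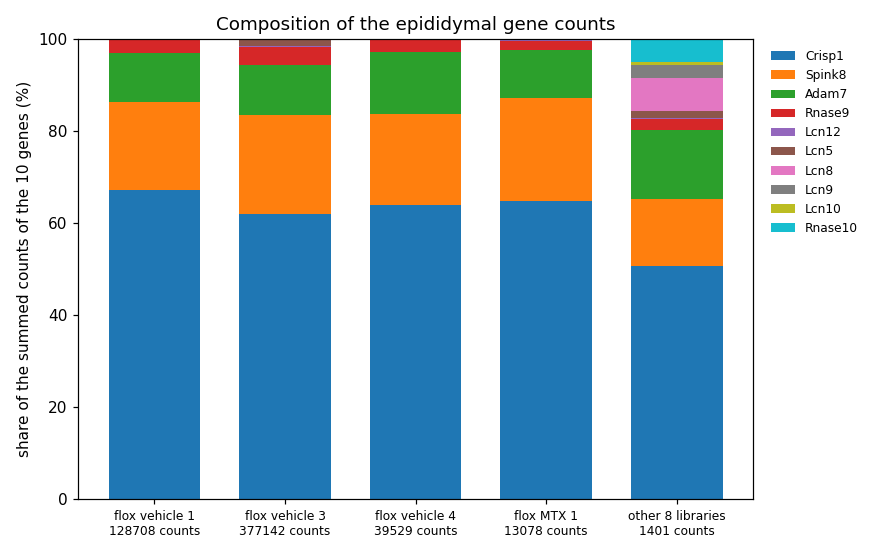
Share of each gene in the summed counts of the 10 genes (%), for the 4 libraries with high counts one by one and for the other 8 libraries pooled. Crisp1, Spink8 and Adam7 fill most of each bar, with Crisp1 at 62.0 to 67.2% in the 4 libraries and 50.7% in the pooled others, where Lcn8, Lcn9 and Rnase10 become visible.

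Set against Crisp1, the steady members stayed in a narrow band. For every 100 Crisp1 counts Spink8 had 28.4, 34.5 and 31.2 in flox vehicle replicates 1, 3 and 4 and 34.6 in flox MTX replicate 1. Adam7 had 16.0, 17.5, 21.0 and 16.1 in the same order, Rnase9 had 3.99, 6.43, 4.15 and 3.10, and Lcn12 had 0.495, 0.356, 0.389 and 0.485. Flox MTX replicate 1 thus held these genes in nearly the proportions of the flox vehicle libraries at a lower total. Its Rnase9 ratio was the lowest of the 4 libraries, and its Spink8 ratio was level with flox vehicle replicate 3.

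**Figure D3:**
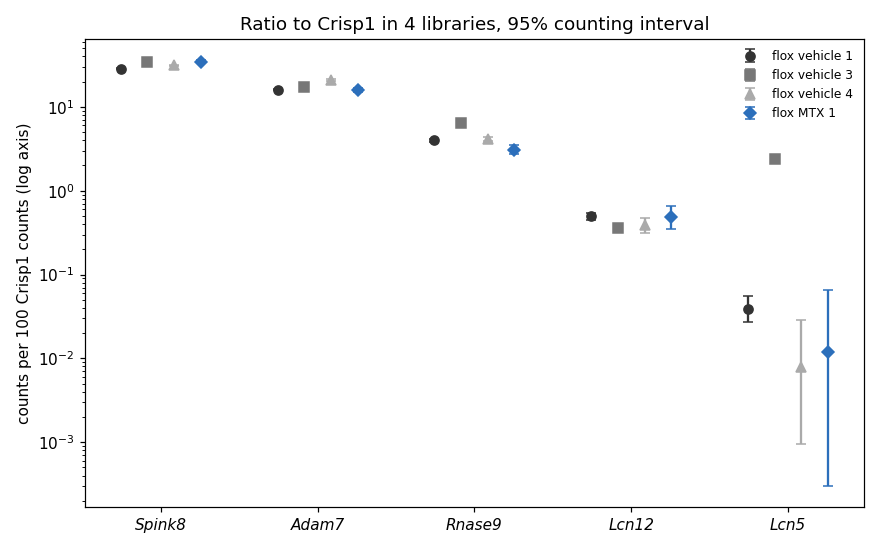
Counts per 100 Crisp1 counts (log axis) for 5 genes in the 4 libraries with high counts, with bars for the exact 95% counting interval. Spink8, Adam7, Rnase9 and Lcn12 sit within a 2.1-fold band across the libraries, whereas Lcn5 runs from 0.00793 in flox vehicle 4 to 2.41 in flox vehicle 3.

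The pooled counts of the other 8 libraries gave the same ratio for Spink8 and Rnase9 within counting error, and another for Adam7. Spink8 had 28.8 counts per 100 Crisp1 counts there (interval 24.6 to 33.7) and 32.8 in the 4 libraries pooled. Rnase9 had 4.78 (3.29 to 6.75) and 5.59. Adam7 had 29.1 (24.8 to 34.0) and 17.3. Its ratio was above 17.3 in KO vehicle replicates 1, 2 and 3 (55.1, 30.9 and 29.3) and flox MTX replicate 4 (25.3). The same held for KO MTX replicate 3, with 49 Adam7 and 196 Crisp1 counts. Among these libraries, only KO vehicle replicate 1 (interval 36.1 to 83.0) lay clearly above flox vehicle replicate 4, a high library with 21.0. The intervals of KO vehicle replicates 2 and 3 (18.9 to 48.8 and 19.6 to 42.7) covered 21.0. So did those of flox MTX replicate 4 (17.4 to 36.0) and KO MTX replicate 3 (17.9 to 34.3). All these intervals leave out the spread between mice. Flox MTX replicate 2, with 11 Adam7 counts, had 14.5 (6.93 to 27.4), and KO MTX replicates 2 and 4 held too few Crisp1 counts (5 and 3) for a ratio to be read.

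Lcn5, the retinoid-binding lipocalin of the caput, did not keep a ratio to the other members. It had 34, 5643 and 2 counts in flox vehicle replicates 1, 3 and 4, 7, 2 and 0 in KO vehicle mice, 1, 0 and 12 in flox MTX mice and 0 in every KO MTX library. Flox vehicle replicate 3 alone was high, and flox vehicle replicate 4 lay within the range of the KO libraries despite 25221 Crisp1 counts. Per 100 Crisp1 counts Lcn5 stood at 0.0393 (0.0272 to 0.055), 2.41 (2.35 to 2.48) and 0.00793 (0.00096 to 0.0286) in the flox vehicle libraries and at 0.0118 in flox MTX replicate 1. Its share of the member counts differed 295.7-fold between the highest and the lowest of the 4 libraries. The lowest share rested on the 2 counts of flox vehicle replicate 4, which are within the limit of 3, so the size of that fold is uncertain.

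Lcn8, a caput lipocalin whose gene begins 4.8 kb before that of Lcn5, was not raised in the 4 libraries as a set. Its counts were 0, 35 and 0 in flox vehicle mice, 32, 0 and 2 in KO vehicle mice, 6, 4 and 36 in flox MTX mice and 20, 2 and 5 in KO MTX mice. The 4 libraries with the highest counts were flox MTX replicate 4, flox vehicle replicate 3, KO vehicle replicate 1 and KO MTX replicate 2, thus 1 of each group, and all groups overlapped. KO MTX replicate 2 held 20 Lcn8 counts beside 5 of Crisp1, whereas flox vehicle replicate 1 held 0 beside 86439, which allows at most 3 counts or 0.13 CPM.

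**Figure D4:**
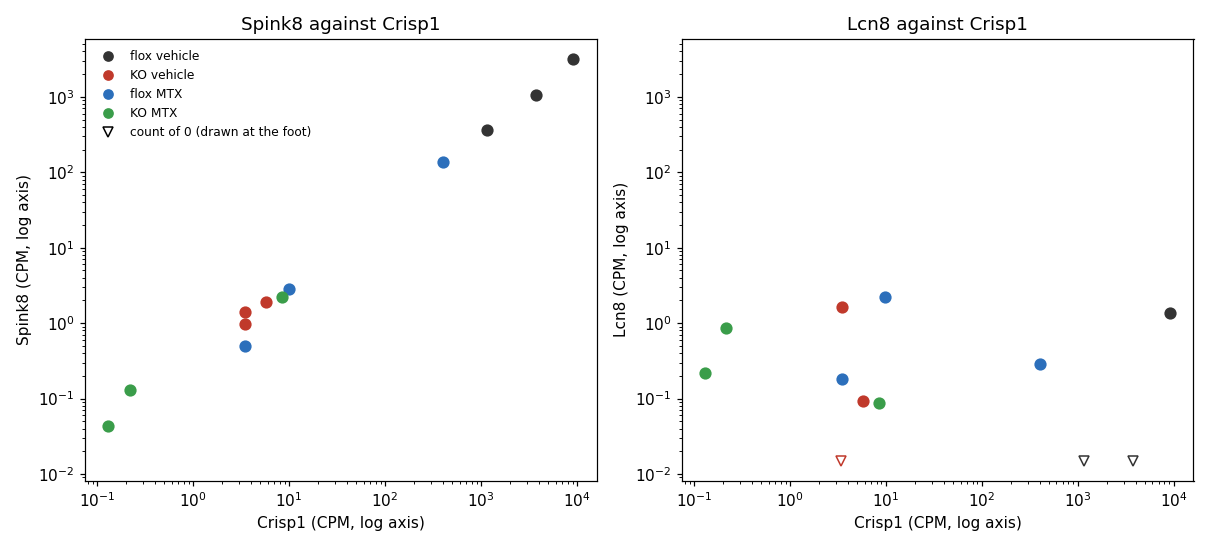
Spink8 (left) and Lcn8 (right) against Crisp1 in the 12 libraries (CPM, log axes), with 1 point per mouse coloured by group and open triangles for counts of 0. Spink8 was higher wherever Crisp1 was clearly higher, from 0.0437 to 3175 CPM, while Lcn8 lay between 0 and 2.25 CPM at any level of Crisp1.

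Lcn9 and Rnase10 were low throughout. Lcn9 had 0, 8 and 0 counts in flox vehicle mice, 17, 0 and 0 in KO vehicle mice, 4, 3 and 8 in flox MTX mice and 7, 3 and 3 in KO MTX mice. The 4 libraries that led for Lcn8 also led for Lcn9. Rnase10 had 4, 12 and 8 counts in flox vehicle mice, 24, 12 and 1 in KO vehicle mice, 10, 4 and 10 in flox MTX mice and 3, 11 and 5 in KO MTX mice, and its groups overlapped in all comparisons. Lcn10 did not exceed 4 counts in any library. Lcn8, Lcn9 and Rnase10 made up 7.21%, 2.93% and 5.0%, in that order, of the member counts in the 8 low libraries, against 0.00734%, 0.00215% and 0.00609% in the 4 high ones.

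All 5 lipocalin members lie on chromosome 2 within 335 kb (GRCm38), with Lcn12 (25490845 to 25493911) at one end and Lcn9 (25823153 to 25825537) at the other, and Lcn8 (25653120 to 25656217), Lcn5 (25657952 to 25661977) and Lcn10 (25682726 to 25686081) between them. No other annotated gene overlapped any of the 10 members. The deleted miRNA gene Mir181a-2 lies on the same chromosome, 13.0 Mb beyond Lcn9. Within the span, Lcn12 was high in 4 libraries, Lcn5 in 1 and Lcn8, Lcn9 and Lcn10 in none of the same kind, and the lipocalins Lcn6 (at most 20 counts), Obp2a (at most 2), Obp2b, Lcn3 and Lcn11 were at or near 0. Rnase10 and Rnase9 lie 27.7 kb apart on chromosome 14 and also differed, with 12 and 15038 counts in flox vehicle replicate 3.

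**Figure D5:**
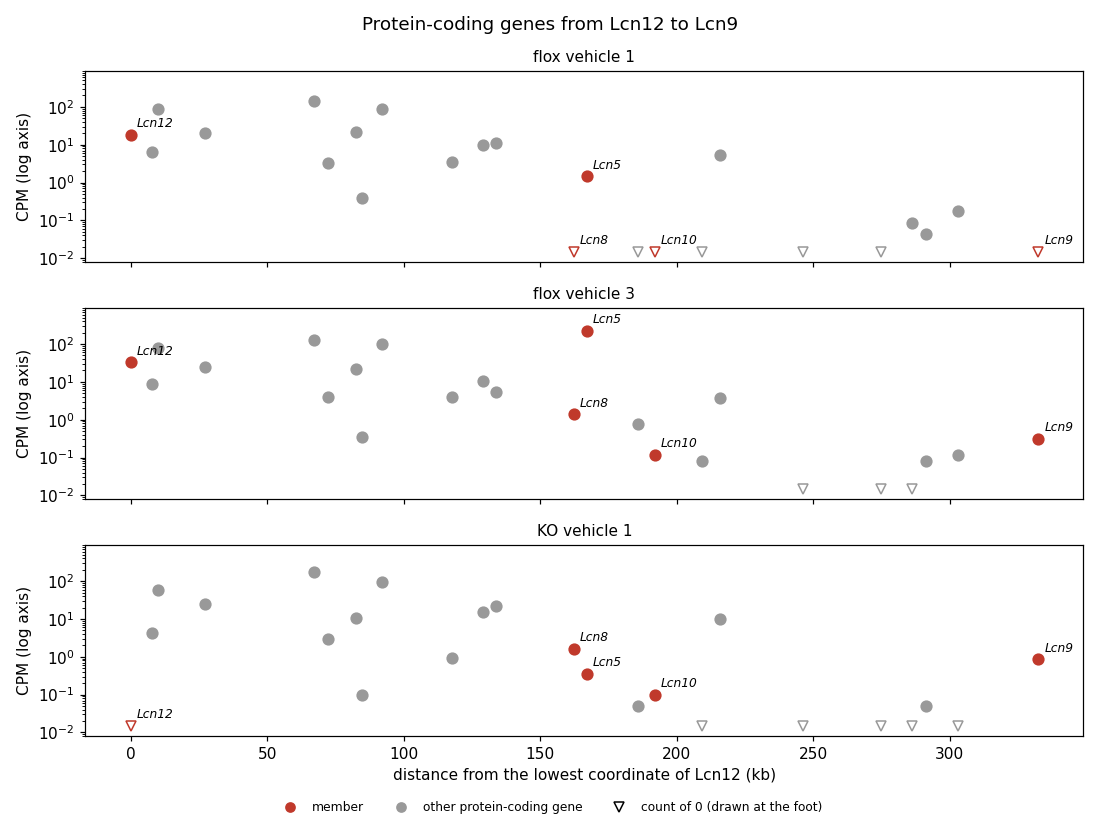
Level (CPM, log axis) of the protein-coding genes between Lcn12 and Lcn9 against their distance from the lowest coordinate of Lcn12 (kb), in flox vehicle 1, flox vehicle 3 and KO vehicle 1, with the lipocalin members in red and other genes in grey. Lcn5 stood at 1.48, 222 and 0.353 CPM in the 3 libraries, Lcn12 at 18.6, 32.7 and 0, and Lcn8 at 0, 1.38 and 1.61, beside 143.5, 125.2 and 176.0 CPM for the neighbour Edf1.

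Fitted contrasts across all 18702 genes put numbers on these levels, where a call needed a Benjamini-Hochberg adjusted p under 0.1 together with a difference of 1.5-fold or more. In KO against flox mice under vehicle, 6 of the 8 members tested were called lower, beside 17.8% of all genes tested. Since the flox vehicle libraries chose the members, nothing is read from that count. The log2 fold change was -10.12 (SE 2.27) for Crisp1, -10.06 (SE 2.17) for Spink8, -9.04 (SE 1.82) for Adam7 and -10.31 (SE 1.81) for Rnase9. Without flox vehicle replicate 3 these values were -9.18, -8.96, -8.09 and -8.90 in the same order. Counts of 5 members (Crisp1, Spink8, Adam7, Rnase9 and Lcn12) were lower in every KO vehicle library than in every flox vehicle library, a separation seen in 25.3% of all genes tested. The call of Lcn5 (SE 2.66) was lost on leaving out flox vehicle replicate 3, where its log2 fold change was -2.43. It was also lost on leaving out KO vehicle replicate 2 or 3 (-8.70 and -8.42) and with the replicate number as a block (-7.15). DESeq2 gave Lcn5 no adjusted p (log2 fold change -9.02). Lcn8 (0.24, SE 1.65) and Rnase10 (0.77, SE 0.84) were not called.

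MTX against vehicle in flox mice shared the flox vehicle libraries with that contrast. Here too 6 of the 8 members were called lower (16.1% of all genes tested) and the same 5 genes did not overlap (17.5% of all genes tested). Crisp1 had a log2 fold change of -5.09 (SE 1.82), Spink8 of -5.02 (SE 1.72), Adam7 of -5.18 (SE 1.51) and Rnase9 of -5.88 (SE 1.39). Single libraries moved these values. Without flox MTX replicate 1 they were -9.48, -9.88, -9.15 and -9.39, with 5 members called. Without flox vehicle replicate 3 they were -4.16, -3.91, -4.22 and -4.47, and 1 member (Rnase9) was called, while calls over all genes went from 4528 to 2219.

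Under MTX, KO and flox mice overlapped for all 10 members, and 0 members were called by edgeR's quasi-likelihood test (0% of all genes tested). At an unadjusted p under 0.05 there were 5 members and 4576 genes, and DESeq2 called 5 members beside 2769 genes in all. Crisp1 had a log2 fold change of -5.54 (SE 1.89), and flox MTX replicate 1 carried 8461 of the 8695 Crisp1 counts of its group. Without flox MTX replicate 1 the log2 fold changes of Crisp1, Spink8 and Adam7 were -1.14, -0.97 and -0.78, with 0 members called. Without flox MTX replicate 2 that of Crisp1 was -6.11, and 5 members were called beside 4064 genes in all.

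MTX against vehicle in KO mice compared only libraries that had not chosen the members. The fit of all 12 libraries nevertheless took its spread and its filter on low counts partly from the 4 high libraries, and Lcn12 (0, 1 and 1 counts under vehicle and 0 in every MTX library), Lcn5 and Rnase9 passed that filter through the flox mice, so that they could hardly have been called here. With the 6 KO libraries fitted alone, 4 members passed the filter, namely Crisp1, Spink8, Adam7 and Rnase10. None was called by edgeR's quasi-likelihood test, beside 3 genes in all, and the adjusted p was 0.857 for Crisp1, 0.722 for Spink8, 0.641 for Adam7 and 0.583 for Rnase10. Crisp1 stood at 4.22 ± 1.33 CPM (SD, n = 3) under vehicle and 2.95 ± 4.80 CPM under MTX, a log2 fold change of -0.53 in that fit. In the fit of all libraries no gene was called (0% of all genes tested), the smallest adjusted p was 0.293 (edgeR), and 1491 genes and 0 of the 8 members had an unadjusted p under 0.05. DESeq2 called 281 genes and 0 members. Standard errors in that fit (1.65 for Crisp1 and 0.85 for Rnase10 on the log2 scale) leave several-fold changes in either direction undetectable. All 10 members overlapped between the groups.

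Other genes of the epididymis were counted from lists chosen with earlier results of these data known. Of 22 further secretory genes, 13 exceeded 3 counts in each of the flox vehicle libraries and 1 did so in each of the KO MTX libraries. In KO against flox mice under vehicle 10 of the 12 that passed the low-count filter were called lower and 0 higher, beside 17.8% of all genes tested called lower. Their median log2 fold change was -8.55 when counts below the limit were set to it, beside -0.06 over all genes tested. Genes such as Bsph2 (1465, 3819 and 426 counts in flox vehicle mice, 0, 1 and 1 in KO vehicle mice) passed that filter through flox mice. A call in this direction was thus largely set in advance, and nothing is read from the count. Ces5a, a carboxylesterase, had 18040, 50464 and 6034 counts in flox vehicle mice and 1419 in flox MTX replicate 1, against at most 33 elsewhere. Wfdc10, of the whey acidic protein family, had 4390, 15984, 1350 and 540 counts in the same libraries, and Rnase12 had 3437, 9913, 1058 and 431, as in the pattern of Crisp1. Spint4, a Kunitz-type protease inhibitor gene, had 149, 17617, 10 and 12 counts, as in the pattern of Lcn5.

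Likeness to the members was then measured over all genes that passed the filter. Pearson's r (log2-CPM, 12 libraries) was taken against the mean of the 8 members that passed it, a description that the 4 high libraries dominate. The 10 genes with the highest r were Eddm3b (0.990), Defb22, Pate1, Wfdc10, BC048679, C4bp, Pate3, Defb42, Ces5a and Wfdc13 (0.983), and 172 of 18694 genes were above 0.95. Defb22, a beta-defensin gene, had 10826, 37284 and 2569 counts in flox vehicle mice and 895 in flox MTX replicate 1. For Lcn5 no epididymal gene led, but its r was dominated by flox vehicle replicate 3 (5643 counts, at most 34 elsewhere). Its r was highest for Ilf2 (0.968), a broadly expressed gene with 1843 counts there and 836 to 1290 elsewhere. Spint4 and Spink11 also had their highest counts in that library (17617 and 3001, and at most 149 and 76 elsewhere). For Lcn8 r was highest for Gpx5 (0.933), the secreted glutathione peroxidase of the caput. Gpx5 had 0, 87 and 0 counts in flox vehicle mice, 94, 0 and 0 in KO vehicle mice, 13, 12 and 81 in flox MTX mice and 15, 13 and 14 in KO MTX mice, and like Lcn8 it was at 0 in flox vehicle replicates 1 and 4.

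Within their own gene families the members stood apart to different degrees. The calls given here are for KO against flox mice under vehicle, where 17.8% of all genes tested were called lower and 2598 of 18702 higher. They are a description, since the families include members and the flox vehicle libraries chose those. Genes such as Spink13 (155, 418 and 29 counts in flox vehicle mice, 1, 0 and 0 in KO vehicle mice) also passed the filter through flox mice. Of the 12 Spink genes, 6 passed the filter and 6 were called lower. Spink10 had 1978, 5161 and 641 counts in flox vehicle mice, and Spink11 had 76, 3001 and 19, which was closer to Lcn5. All 3 of the Crisp genes that passed were called lower, and Crisp4 had 660, 2072 and 204 counts. Of the 21 Adam genes 8 were called lower and 3 higher, of the 6 Rnase genes 3 lower and 1 higher, and of the 5 lipocalin genes 3 lower. Not all genes called lower followed the members in flox MTX replicate 1. There Adam3 and Adam5 had 3 and 7 counts, after 143, 508 and 202 and 163, 547 and 262 in flox vehicle mice, while Adam2 had 53 after 47, 246 and 133. Crisp2 had 479, 1052 and 357 counts in flox vehicle mice, 38 in flox MTX replicate 1 and 44 in KO MTX replicate 4. Ptgds, a lipocalin-type prostaglandin synthase that is also abundant in the male tract, had 9977, 17561 and 5091 counts in flox vehicle mice, 884 in flox MTX replicate 1 and at most 158 in the other 8 libraries.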

How the data were processed

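RNA of eWAT from 12 mice was sequenced, and the authors deposited 1 table of raw read counts per Ensembl gene. Per the submitters' notes, reads were trimmed (Trimmomatic 0.36), aligned to GRCm38 (STAR 2.5.2b) and counted with featureCounts (Subread 1.5.2). The labels give polyA RNA whereas the methods give ribodepletion, and the strand setting is not given in the sources used here. Counts were fitted with edgeR 4.0.16 (quasi-likelihood test, TMM, filterByExpr, 1 coefficient per group, 18702 genes tested, Benjamini-Hochberg adjustment, R 4.3.3) in 1 fit of 12 libraries. Calls required an adjusted p under 0.1 together with a difference of 1.5-fold or more. DESeq2 1.42.0 was an alternative, beside other scalings, filters, a replicate block and leaving out each library. Scripts were tested on simulated counts. Shares and ratios used exact intervals (SciPy 1.17.1). CPM were TMM-scaled, and 3 counts were taken as the limit of a count of 0. The members, gene lists and tests were chosen with earlier results of these data known. Named genes were the members, up to 4 genes per list with the highest mean CPM in flox vehicle mice and the 10 genes most like the members. The genes named for Lcn5 and Lcn8, the 3 patterns, Gpx5 and the single libraries were chosen after values were seen. The main fit did not pair libraries by replicate number. Per the paper, littermates matched by cage were used, and a pairing of that kind was not excluded. No libraries of a group agreed within sampling noise.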

Additional observations from a re-analysis of the deposited data

How the results depend on the processing

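Shares and ratios within a library rest on the counts alone, and the levels of the summed members moved by less than the spread between replicates under RLE factors or library size. Per kb in place of counts, Crisp1 made up 62.5%, 56.4% and 60.1% in flox vehicle replicates 1, 3 and 4 and 58.9% in flox MTX replicate 1, with a highest over lowest share of 1.109. The ratio of highest to lowest share of Lcn12 was 1.743 with Crisp1 left out of the denominator. By Spearman's rho, 5 of the 10 genes most like the members were found again. Members called lower in KO against flox mice under vehicle numbered 6, 5 with the replicate block and from 5 to 6 without single libraries. For MTX against vehicle in flox mice the number was 6, 5 with the replicate block, 1 with the 6 libraries of the comparison alone and from 1 to 6 without single libraries, where 1 was without flox vehicle replicate 3. For KO against flox mice under MTX it was 0, 5 with DESeq2, 2 with no filter and from 0 to 5 without single libraries, where 5 was without flox MTX replicate 2. In KO mice it was 0 under each alternative run, and over all genes 0, 281 with DESeq2, 20 with no filter, 3 with the 6 libraries alone and 215 without KO vehicle replicate 3. In that contrast, without single libraries, the log2 fold change of Crisp1 ran from -4.55 (without KO MTX replicate 3) to 0.047 (0.033 and 0.047 without KO MTX replicates 2 and 4), and that of Lcn8 from -1.83 to 2.97 (without KO vehicle replicate 1). Genes called over the whole table under MTX went from 0 to 2769 with DESeq2, 875 with no filter, 4 with the 6 libraries alone, 1028 when flox vehicle replicate 3 was left out, and 76 or 4064 when flox MTX replicate 1 or 2 was left out. In flox mice they went from 4528 to 2771 with the replicate block, 2167 with the 6 libraries alone, 2219 without flox vehicle replicate 3 and 2791 with a log2 fold change limit of 1.5, and under vehicle from 5924 to 3026 with that limit. The cause was not tested in any of these cases. Same-numbered libraries deviated together weakly (median correlation 0.0353 over 12 pairs, above 0.1 in 3, and 0.0112 over 42 other pairs). With so few pairs this neither shows nor excludes a pairing by litter or cage. A minimum of 10 counts in every library left 0 members and gave no value. Depth limits the 8 low libraries, in which members other than Crisp1 had at most 52 counts.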

Other observations

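Genes of epididymal cells other than the secretory ones moved in the same libraries. Of 7 genes for ion transport and transcriptional regulation, 7 were called lower in KO against flox mice under vehicle and 6 in MTX against vehicle in flox mice (17.8% and 16.1% of all genes tested were called lower), a description, since libraries of these contrasts chose the epididymal genes. Pax2, a transcription factor of the male duct, had 1055, 2917 and 340 counts in flox vehicle mice and 130 in flox MTX replicate 1, against at most 21 elsewhere. Foxi1, the transcription factor of acid-secreting clear cells, had 271, 564, 59 and 16 counts in the same libraries and at most 1 elsewhere. Aqp9, a channel for water and glycerol, had 1694, 4360, 581 and 189 counts, and between 27 and 105 in the other libraries.

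Germ cell transcripts did not keep one ratio to the 10 epididymal genes. The 7 germ cell genes, protamine genes among them, had 9.89, 2.57 and 8.73 counts per 100 member counts in flox vehicle replicates 1, 3 and 4, and 0.168 in flox MTX replicate 1, where 22 germ cell counts stood beside 13078 member counts. In KO MTX replicate 4, which had the fewest member counts (19), Prm2 had 95 counts. The seminal vesicle list summed to between 2.447 and 12.2 CPM in flox vehicle mice and to at most 0.8265 CPM elsewhere. Of its genes, Pate4 had 71, 302 and 15 counts in flox vehicle mice and at most 3 elsewhere, and Svs5 had 7, 5 and 36 counts there and at most 14 elsewhere. These 2 genes carried the sum, since Svs2, Svs3a, Svs3b and Svs4 had at most 1 count in any library and Svs6 at most 4.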
